A study of Homo sapiens with 6 samples.

Results

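The microRNAs described here are 8 that are often lowered in colorectal tumours and are studied as tumour suppressors there, namely miR-143, miR-145, miR-133a, miR-133b, miR-139, miR-378, miR-1 and miR-328. They were taken by name. Every human probe whose name, without species prefix, arm, star, gene copy number or precursor suffix, was 1 of these 8 was kept. That gave 19 of the 2997 probes on the array, for 8 of the 878 human miRNA names on it. Of these, 13 were mature-named and 6 carried the suffix P, which the sources used here do not explain and which is read as "precursor-named". The probe hsa-miR-1 (2) was taken as a further probe for miR-1.

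All samples came from HCT-116, an established human colorectal carcinoma cell line of epithelial origin, and all were transiently transfected. The mock group received an empty vector. The other groups received constructs for Uc283+a, a long noncoding transcript of an ultraconserved genomic element, that differ in a run of T, with 8 T in variant 1 and 9 T in variant 2. Each of the 3 groups had 2 one-colour arrays, and the design asked which miRNAs respond to Uc283+a, in a study of primary miRNA processing. Whether the 2 arrays of a group came from separate cultures is not stated, so p-values reflect only how far these samples lie apart, which may be technical. The sources used here give neither the promoter of the constructs nor the time after transfection.

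A miRNA is cut from a hairpin within a longer primary transcript, first by Drosha with DGCR8 in the nucleus and then by Dicer, and the strand that is kept pairs with target messages mainly through its seed, bases 2 to 8. The miRNAs miR-143 and miR-145 are made together and are abundant in smooth muscle and fibroblasts, so that whole colon tissue owes much of its signal to the stroma. The pairs of miR-1 with miR-133a and of miR-206 with miR-133b are the classical muscle miRNAs, while miR-139, miR-378 and miR-328 lie in protein-coding genes.

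The mature RNAs that the 13 mature-named probes are named for are shown first, with the seed in capitals, because the seed decides which members can share targets. All 13 names matched RefSeq (GRCh38.p14). Older names were read by the usual convention, in which a star marks the less abundant arm. The case of the letters was ignored, so hsa-mir-1 counted as mature-named only because it lacks the suffix P. The sequences of the probes themselves were not used here.
miR-143-3p, read as hsa-miR-143: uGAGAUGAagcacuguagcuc
miR-143-5p, read as hsa-miR-143*: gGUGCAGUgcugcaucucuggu
miR-145-5p, read as hsa-miR-145: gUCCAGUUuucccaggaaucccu
miR-145-3p, read as hsa-miR-145*: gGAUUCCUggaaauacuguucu
miR-139-5p: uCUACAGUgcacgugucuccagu
miR-139-3p: uGGAGACGcggcccuguuggagu
miR-328-3p, read as hsa-miR-328: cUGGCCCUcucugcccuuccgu
miR-378a-3p, read as hsa-miR-378: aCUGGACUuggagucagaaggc
miR-378a-5p, read as hsa-miR-378*: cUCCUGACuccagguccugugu
miR-133a-3p, read as hsa-miR-133a: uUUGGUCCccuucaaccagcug
miR-133b: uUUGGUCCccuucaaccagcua
miR-1-3p, read as hsa-mir-1 and hsa-miR-1 (2): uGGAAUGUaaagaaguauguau
The relative miR-206, which is not among the 8, is shown for its seed: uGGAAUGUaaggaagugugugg

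Only miR-133a-3p and miR-133b share a seed among these members. Counted from the 5′ end, they differ in 1 of 22 bases, G22A with the miR-133a-3p base first, so a probe for either may also bind the other, and their signals are uncertain to that extent. The seed of miR-1-3p is shared with miR-206, from which it differs in 4 of 22 bases (A11G, A17G, A21G and U22G, miR-1-3p first). The seed of miR-378a-3p is shared with miR-378b, miR-378c and miR-422a, which were also on the array. Not every seed relative is named here. RefSeq holds 3 mature names with the seed of miR-1-3p, 7 with that of miR-378a-3p and 3 with that of miR-143-3p.

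The hairpins of MIR143 at chr5:149428918-149429023 and MIR145 at chr5:149430646-149430733 (GRCh38.p14, plus strand) are separated by 1622 bases and lie within the interval of CARMN, their host RNA. They are printed with the mature arms in capitals, to show the parts that a mature-named probe can also find in precursor RNA.
MIR143 hairpin: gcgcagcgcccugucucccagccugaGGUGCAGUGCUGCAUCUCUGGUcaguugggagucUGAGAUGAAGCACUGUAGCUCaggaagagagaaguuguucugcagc
MIR145 hairpin: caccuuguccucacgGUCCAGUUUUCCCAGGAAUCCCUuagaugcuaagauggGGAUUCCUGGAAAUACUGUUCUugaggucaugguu
The other hairpins named by probes lie at chr18:21825698-21825785 (MIR133A1, minus strand), 3218 bases from MIR1-2, at chr20:62554306-62554376 (MIR1-1, plus strand), 10535 bases from MIR133A2, and at chr6:52148923-52149041 (MIR133B, plus strand), 4488 bases from MIR206. MIR139, at chr11:72615063-72615130 (minus strand), lies in the interval of PDE2A, MIR378A, at chr5:149732825-149732890 (plus strand), in that of PPARGC1B, and MIR328, at chr16:67202321-67202395 (minus strand), in that of ELMO3. Exon and intron positions were not used here.

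Values are log2 signals as the authors normalized them. Levels of different probes are not set against each other, with few exceptions. They order the plot of signals and choose 1 probe for the comparison of profiles. They also enter the plot of signal against base composition and the difference between mature-named and precursor-named signal within an array. The background of an array is the 95th percentile of its 38 random-sequence probes, between 6.75 and 7.27, and a probe is above background if its signal was higher than this on each of the 6 arrays. By this measure 389 of the 1773 human miRNA and ultraconserved-region probes tested were above background. On single arrays the number ran from 452 to 757. Of the mature-named epithelial markers, 4 of 16 probes were above background (hsa-miR-200b, hsa-miR-200c, hsa-miR-429 and hsa-miR-21), but none of the probes for the intestinal miR-192, miR-194 and miR-215 was. Of 11 haematopoietic marker probes, only hsa-miR-150 was. Over the 389 probes above background, mock replicate 1 and variant 2 replicate 2 stood apart from the other arrays. The SD of the log2 difference over the 389 probes was 0.667 to 0.837 for pairs with either of them and 0.463 to 0.576 for the remaining 6 pairs. The member probes gave a different picture, but only 3 of these 19 were above background, so the 2 sets of probes differ in signal level. Over the 19 the SD was 0.731 to 0.926 for pairs with mock replicate 2 and 0.585 to 0.833 for all other pairs. It was 0.623 between mock replicate 1 and variant 2 replicate 2. Below, the arrays that stand apart are those named from the 389 probes. The median of the 4 small nucleolar RNA control probes, which were not tested, was 11.5 and 11.6 on the mock arrays and 10.7 to 11.1 on the variant arrays.

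Of the 19 probes, 3 were above background on all 6 arrays (hsa-miR-139-3p, hsa-miR-328 and hsa-miR-145*), 8 on some arrays and 8 on none. The 3 are 15.8% of the 19, beside 21.9% of all probes tested. Of the 8 miRNAs, only miR-143, with 2 probes and none precursor-named, had no probe above it on any array. For miR-133a, only the precursor-named hsa-miR-133a-1-P was above it, on 1 array. On single arrays between 3 and 10 of the 19 were above it, with the fewest on variant 2 replicate 1 and the most on variant 2 replicate 2. The 6 precursor-named probes were above background on 0 to 4 arrays each.

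**Figure D1:**
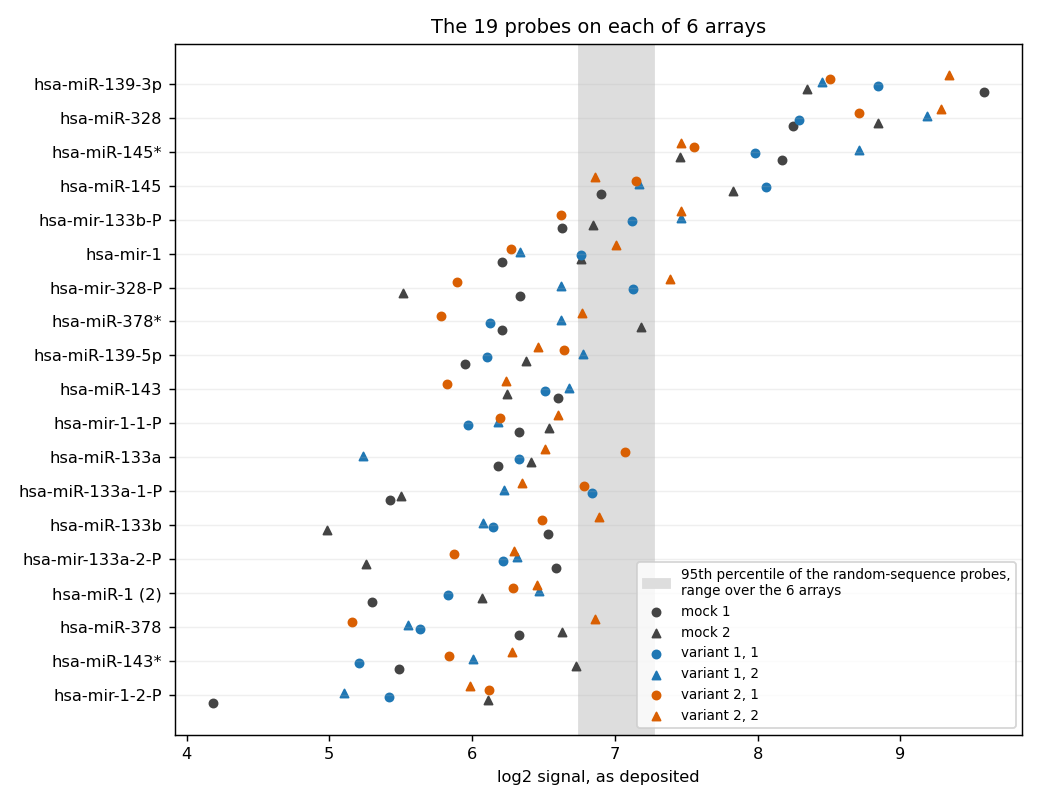
Log2 signal (x axis) of each of the 19 probes (y axis, ordered by mean) on the 6 arrays, with circles for replicate 1 and triangles for replicate 2 of mock (grey), variant 1 (blue) and variant 2 (orange). The grey band spans the background of the arrays, 6.75 to 7.27, and only hsa-miR-139-3p, hsa-miR-328 and hsa-miR-145* lie above it on every array.

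None of the 19 probes passed the test in any comparison. For both variants against mock, limma called 0 of the 1773 probes (0%) after Benjamini-Hochberg adjustment, and 0 of the 19. At an unadjusted p under 0.05 there were 82 probes (4.62%) and 1 of the 19. A trended prior called 1 probe of the 1773, which is not among the 19. Of the 19, 11 were higher and 8 lower in the variants, with a median difference of 0.11 on the log2 scale against -0.01 over all probes tested. When arrays were centred on the small nucleolar RNA probes instead, 18 were higher and 1 lower, and the median of all probes tested moved to 0.64. The members' adjusted p ran from 0.975 to 0.998.

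miR-145 represses IRS1 and other growth-signalling messages. Its guide-strand probe hsa-miR-145 read 6.91 and 7.82 on the mock arrays, 8.06 and 7.17 with variant 1, and 7.15 and 6.86 with variant 2. Mock overlapped each variant, while both variant 2 arrays lay below both variant 1 arrays. The lowest values were those of the 2 arrays that stand apart, mock replicate 1 and variant 2 replicate 2. It was above background on 5 of 6 arrays. Both variants differed from mock by -0.06 (SE 0.414, 95% interval -1.0 to 0.88). Without mock replicate 1 the difference was -0.52, and without mock replicate 2 it was 0.40, so its sign turned with the mock array kept. The sign also turned without variant 1 replicate 2 (0.16) and without variant 2 replicate 2 (0.014).

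The opposite arm, hsa-miR-145*, was above background throughout. It read 8.17 and 7.45 in mock, 7.98 and 8.71 with variant 1, and 7.55 and 7.46 with variant 2. Both variant 2 arrays lay below both variant 1 arrays, while mock overlapped each. The means were 7.81 ± 0.507 in mock, 8.34 ± 0.516 with variant 1 and 7.51 ± 0.065 with variant 2 (SD, n = 2 each). Both variants differed from mock by 0.11 (SE 0.378, 95% interval -0.75 to 0.97), a difference of -0.25 without mock replicate 2 and 0.47 without mock replicate 1.

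The partner miRNA from the same transcript, miR-143, which represses MAPK7, was not above background on any array. hsa-miR-143 read 6.60 and 6.25 in mock, 6.51 and 6.68 with variant 1, and 5.82 and 6.24 with variant 2. The variant 2 arrays were the lowest of the 6, but all values lay below background, so no fold is given. Its difference for both variants was -0.11 (SE 0.334, 95% interval -0.87 to 0.65). The star probe hsa-miR-143* was likewise above background on 0 arrays. Of the 10 mature-named stromal marker probes, which include these 4, only hsa-miR-145* and hsa-miR-214 were above background on every array.

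miR-139 was read on both arms. The 5p arm, the guide strand that represses IGF1R, was above background on 0 arrays, and hsa-miR-139-5p read 5.95 and 6.38 in mock, 6.11 and 6.78 with variant 1, and 6.65 and 6.46 with variant 2. Both variant 2 arrays lay above both mock arrays, while variant 1 overlapped mock. The probe for the passenger strand, hsa-miR-139-3p, was above background throughout. It read 9.59 and 8.35 in mock, 8.84 and 8.45 with variant 1, and 8.51 and 9.34 with variant 2. The highest values were those of the 2 arrays that stand apart, in 2 different groups, and the groups overlapped.

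For hsa-miR-139-3p the means were 8.97 ± 0.875 in mock, 8.64 ± 0.279 with variant 1 and 8.93 ± 0.589 with variant 2 (SD, n = 2 each). No neighbours in that order differed beyond their spread. The variants differed from mock by -0.18 (SE 0.447, 95% interval -1.20 to 0.84), and by 0.23 without both arrays that stand apart, a setting chosen after seeing the data. For hsa-miR-139-5p the difference was 0.33 (SE 0.355).

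The arms are shown in their hairpin, in capitals, because the 3p arm is rich in G and C.
MIR139 hairpin: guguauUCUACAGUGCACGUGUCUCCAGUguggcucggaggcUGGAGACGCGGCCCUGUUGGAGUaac
G and C make up 65.2% of miR-139-3p and 52.2% of miR-139-5p. In miR-328-3p, the other member of high G and C content, they make up 68.2%. Of the other 11 mature-named probes, named for RNAs of 27.3% to 59.1% G and C, only hsa-miR-145* (40.9%) was above background on all arrays. Beyond these members, 459 mature-named probes could be matched to a RefSeq sequence by exact name. Of those, 26.3% of 114 were above background where G and C made up 60% or more, 20.9% of 148 at 50% to under 60%, 12.2% of 115 at 40% to under 50% and 15.9% of 82 under 40%. Whether base composition has a part in the signals of hsa-miR-139-3p and hsa-miR-328 was not tested.

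**Figure D2:**
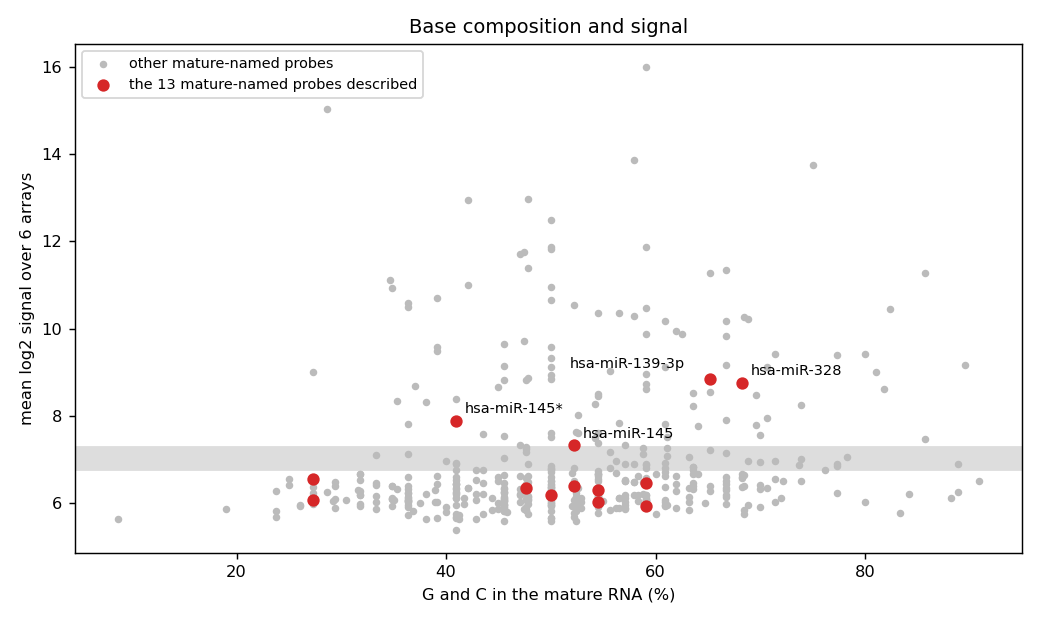
Mean log2 signal over 6 arrays (y axis) against the percentage of G and C in the mature RNA (x axis), for the 13 mature-named probes described (red) and 459 others whose name matched RefSeq exactly (grey). The grey band spans the background of the arrays, 6.75 to 7.27. The members of highest G and C content, hsa-miR-328 (68.2%) and hsa-miR-139-3p (65.2%), both lie above it.

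miR-328, a repressor of the drug exporter ABCG2, gave a signal above background on all arrays. hsa-miR-328 read 8.24 and 8.84 in mock, 8.29 and 9.19 with variant 1, and 8.71 and 9.28 with variant 2. All groups overlapped. The means were 8.54 ± 0.423 in mock, 8.74 ± 0.632 with variant 1 and 8.99 ± 0.406 with variant 2 (SD, n = 2 each), an order in which neighbours differed by less than their spread. Both variants differed from mock by 0.32 (SE 0.402, 95% interval -0.59 to 1.24), and by -0.12 without the 2 arrays that stand apart.

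Its precursor-named probe hsa-mir-328-P read 6.33 and 5.51 in mock, 7.13 and 6.62 with variant 1, and 5.89 and 7.39 with variant 2. Both variant 1 arrays lay above both mock arrays, and variant 2 overlapped mock. It was above background on 2 of 6 arrays, 1 of each variant. The difference for both variants was 0.83 (SE 0.483, unadjusted p = 0.120, limma adjusted p = 0.975). It was 1.24 with mock replicate 1 left out, 0.42 with mock replicate 2 left out and 0.46 with variant 2 replicate 2 left out.

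miR-133a and miR-133b repress EGFR and MET in colorectal cells and are best known from muscle. hsa-miR-133a was above background on 0 arrays and read 6.18 and 6.41 in mock, 6.33 and 5.23 with variant 1, and 7.07 and 6.51 with variant 2. Variant 2 lay above both other groups without overlap, but below background on each array. hsa-miR-133b read 6.53 and 4.98 in mock, 6.15 and 6.07 with variant 1, and 6.49 and 6.89 with variant 2. The 2 mock arrays lay farther apart than any of the group means, and the probe was above background on 1 array. For both variants the differences were -0.01 (SE 0.406) for hsa-miR-133a and 0.64 (SE 0.456) for hsa-miR-133b.

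The precursor-named hsa-miR-133a-1-P was the only member whose 4 variant arrays all lay above both mock arrays. It read 5.43 and 5.50 in mock, 6.84 and 6.22 with variant 1, and 6.78 and 6.35 with variant 2. Among the 19 this is 1 probe higher without overlap (5.26%) and 0 lower, where over all probes tested 6.54% were higher and 6.71% lower, so the share is near the background. The difference was 1.09 (SE 0.350, 95% interval 0.29 to 1.88, unadjusted p = 0.0131, limma adjusted p = 0.975), and it was 1.07 for variant 1 and 1.10 for variant 2, which share the mock arrays. It was above background on 1 array, so the values are log2 signals near or below the random-sequence level and no fold. Both mock readings lay below the medians of the random-sequence probes on those arrays, 6.13 and 6.35. Of the variant arrays, only variant 1 replicate 2 also read below that median, 6.34 there. Its sequence is shown because it is the member of smallest p, with both arms in capitals.
MIR133A1 hairpin: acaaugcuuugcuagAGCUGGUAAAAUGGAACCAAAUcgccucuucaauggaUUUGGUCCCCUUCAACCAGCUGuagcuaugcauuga
The other copy, hsa-mir-133a-2-P, differed from mock by 0.25 (SE 0.427), with its 2 mock arrays at 6.59 and 5.26 on either side of all variant arrays.

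miR-1, a repressor of MET that is made with miR-133a, was read by 2 mature-named and 2 precursor-named probes. hsa-mir-1 read 6.21 and 6.76 in mock, 6.76 and 6.33 with variant 1, and 6.27 and 7.01 with variant 2. hsa-miR-1 (2) read 5.30 and 6.07, then 5.83 and 6.47, then 6.29 and 6.45 in the same order. The groups of the former overlapped, while in the latter both variant 2 arrays lay above both mock arrays. Their differences for both variants were 0.11 (SE 0.376) and 0.57 (SE 0.376), and they were above background on 2 and 0 arrays. The relative hsa-miR-206, which shares the miR-1 seed and lies beside MIR133B, was above background on all arrays, at 9.11 to 10.2.

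miR-378, encoded in the gene of the metabolic coactivator PPARGC1B, was the mature-named member of largest difference. hsa-miR-378 read 6.33 and 6.63 in mock, 5.64 and 5.55 with variant 1, and 5.16 and 6.86 with variant 2. Both variant 1 arrays lay below both mock arrays, and the variant 2 arrays lay on either side of all others. It exceeded background on 1 array, variant 2 replicate 2. Both variants differed from mock by -0.68 (SE 0.476, 95% interval -1.76 to 0.40), and leaving out arrays gave -1.26 (without the 2 arrays that stand apart) to -0.25 (without variant 2 replicate 1). Centred on the small nucleolar RNA probes, the difference was -0.031. The seed relative hsa-miR-378b was above background on all arrays, at 7.08 to 8.67.

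The 6 members not yet given array by array (hsa-mir-1-1-P, hsa-mir-1-2-P, hsa-mir-133a-2-P, hsa-mir-133b-P, hsa-miR-143* and hsa-miR-378*) read between 4.19 and 7.47. Their differences for both variants lay between -0.37 and 0.51, with 3 higher and 3 lower.

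**Figure D3:**
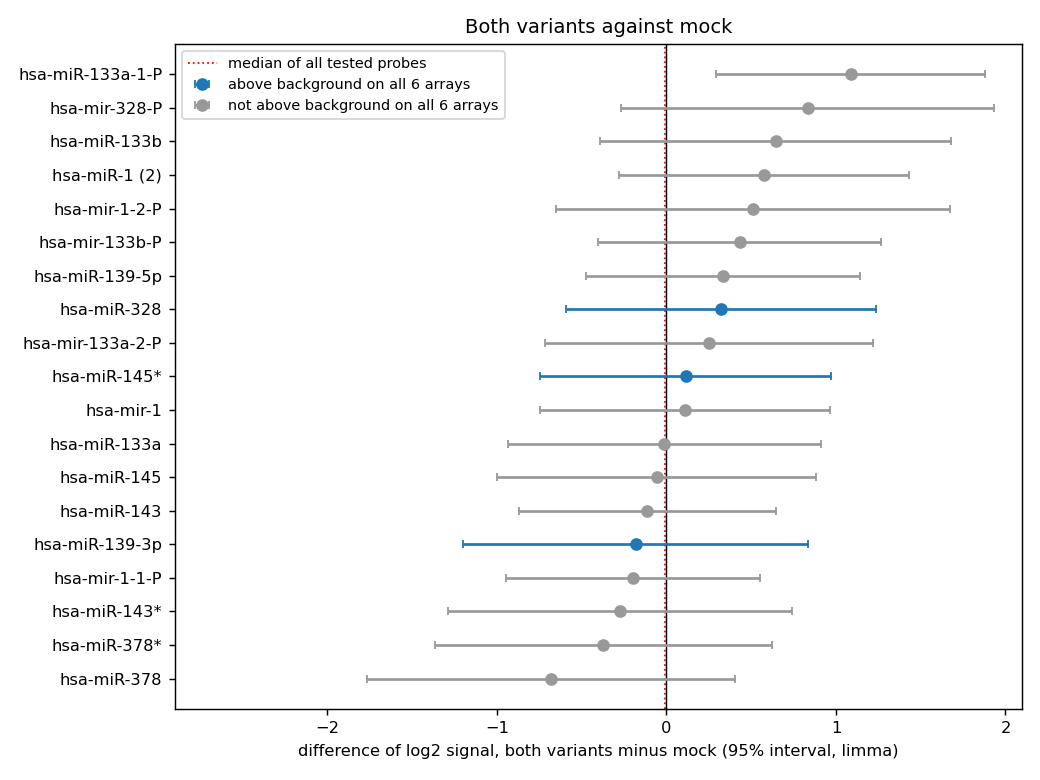
Difference of log2 signal between both variants and mock (x axis, point with 95% interval from limma) for each of the 19 probes (y axis), in blue where the probe was above background on all arrays and grey otherwise. The interval excludes 0 only for hsa-miR-133a-1-P (0.29 to 1.88, before adjustment), and the dotted line is the median of all 1773 probes, -0.01.

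Set apart by kind, the 13 mature-named probes had a median difference of -0.01 for both variants, with 6 higher and 7 lower, against -0.03 over all 1115 mature-named probes. The 6 precursor-named probes had a median of 0.47, with 5 higher and 1 lower, against 0.01 over all 626. None of these 6 was above background on all arrays. The difference between mature-named and precursor-named signal within an array was compared for the 559 miRNA names that have both kinds of probe. Limma called 0 of the 559 (0%), with 34 at an unadjusted p under 0.05. For the 4 members with both, this difference stood in the variants, relative to mock, at -0.68 (SE 0.550) for miR-133a, -0.51 (SE 0.628) for miR-328, 0.21 (SE 0.596) for miR-133b and 0.19 (SE 0.509) for miR-1, with adjusted p up to 0.993 and overlapping arrays in each.

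With variant 1 alone against mock, limma called 0 of the 1773 probes (0%) and 0 of the 19, with 73 of all (4.12%) and 1 of the 19 at an unadjusted p under 0.05. The trended prior called 0. Of the 19, 13 were higher and 6 lower, with a median of 0.19. The arrays did not overlap for 3 higher members (15.8%), hsa-miR-133a-1-P, hsa-mir-133b-P and hsa-mir-328-P, and for 2 lower ones (10.5%), hsa-mir-1-1-P and hsa-miR-378. Over all probes 16.5% were higher and 17.3% lower in this sense. Among members above background, the differences were 0.53 (SE 0.436) for hsa-miR-145*, 0.19 (SE 0.464) for hsa-miR-328 and -0.32 (SE 0.516) for hsa-miR-139-3p.

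For variant 2 alone against mock, limma again called 0 probes (0%) and 0 of the 19, with 85 (4.79%) and 1 of the 19 at an unadjusted p under 0.05. The trended prior called 0. Of the 19, 11 were higher and 8 lower, with a median of 0.16, which was -0.11 without variant 2 replicate 2. The arrays did not overlap for 4 higher members (21.1%), hsa-miR-133a-1-P, hsa-miR-133a, hsa-miR-1 (2) and hsa-miR-139-5p, and for 1 lower one (5.26%), hsa-miR-143, against 16.4% and 17% over all probes. None of these 5 was above background on all arrays. The differences were 0.45 (SE 0.464) for hsa-miR-328, -0.04 (SE 0.516) for hsa-miR-139-3p and -0.31 (SE 0.436) for hsa-miR-145*. The second smallest p was that of hsa-miR-133b, with a difference of 0.93 (SE 0.526, adjusted p = 0.938 in limma). Leaving out mock replicate 1 made it 1.71, and leaving out mock replicate 2 made it 0.16.

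Setting variant 2 against variant 1 compares the runs of 9 T and 8 T. The differences do not use the mock arrays, but their SE and p do, since all 3 groups share an estimate of the spread. Limma called 0 of 1773 probes (0%) and 0 of the 19, with 88 (4.96%) and 0 of the 19 at an unadjusted p under 0.05. The trended prior called 0. Of the pair from CARMN, hsa-miR-143, hsa-miR-145 and hsa-miR-145* were lower with variant 2 on both arrays, which are the 3 lower members without overlap (15.8%, against 17.9% over all probes). Of these 3, hsa-miR-143 was above background on 0 arrays. For hsa-miR-145 the nearest arrays read 7.17 with variant 1 and 7.15 with variant 2, the latter below its background of 7.27. The fourth probe of the pair, hsa-miR-143*, went the other way, with a difference of 0.45 (SE 0.516) and overlapping arrays. Higher without overlap were 4 members (21.1%, against 17.6%), hsa-miR-133a, hsa-miR-133b, hsa-mir-1-1-P and hsa-mir-1-2-P. For hsa-miR-145* the difference was -0.84 (SE 0.436, 95% interval -1.83 to 0.16), for hsa-miR-145 -0.61 (SE 0.478) and for hsa-miR-143 -0.56 (SE 0.385). The smallest p among members was that of hsa-miR-133a, with a difference of 1.01 (SE 0.469, 95% interval -0.06 to 2.08, adjusted p = 0.924 in limma). That difference was 0.46 with variant 1 replicate 2 left out and 1.56 with variant 1 replicate 1 left out, and for hsa-miR-145* the same settings gave -0.47 and -1.20. The remaining members above background differed by 0.28 (hsa-miR-139-3p, SE 0.516) and 0.26 (hsa-miR-328, SE 0.464).

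The profiles of 2 members over the 6 arrays were set beside all 389 probes above background, by the root-mean-square difference after each probe's mean was taken off. Closest to hsa-miR-139-3p were hsa-miR-1972-2-P (0.132), hsa-miR-1244-P (0.151) and hsa-miR-4323 (0.174), where the median over all was 0.602. Each of the 3 was highest on mock replicate 1 and variant 2 replicate 2, the 2 arrays that stand apart. As they were chosen for likeness to a profile with the same peaks, this is no separate result. Closest to hsa-miR-145 were hsa-miR-1249 (0.189), hsa-miR-4260-P (0.207) and hsa-miR-634 (0.217), against a median of 0.536.

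**Figure D4:**
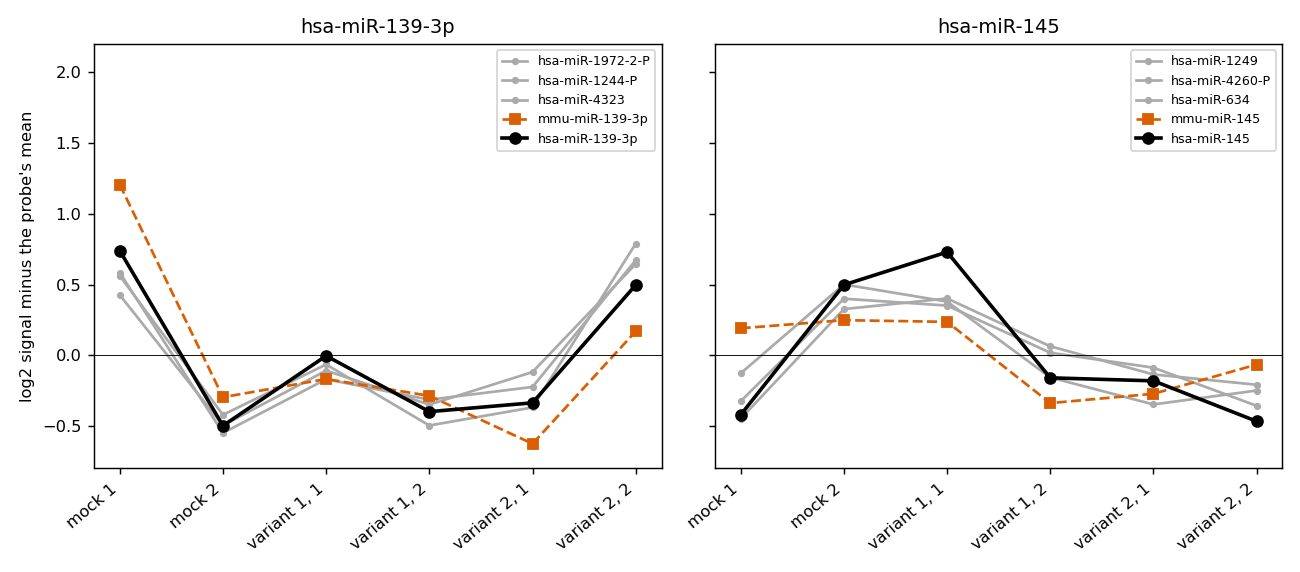
Log2 signal minus the probe's own mean (y axis) on the 6 arrays (x axis) for hsa-miR-139-3p (left) and hsa-miR-145 (right) in black, the 3 probes closest to each in grey, and the mouse-named probe of the same name in orange. Lines only join the points of a probe. The profile of hsa-miR-139-3p is highest on mock replicate 1 and variant 2 replicate 2, and so are the 3 probes chosen for likeness to it.

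The array also carries 17 mouse-named probes with the name of a member, which were read on the same human samples. Only mmu-miR-328 was above background on all 6 arrays (8.29 to 9.58), and mmu-miR-139-3p was above it on 5 (6.90 to 8.73), again highest on mock replicate 1. The mouse-named mmu-miR-145 was above background on 3 arrays and mmu-miR-145* on 1, at 6.88 or lower, where human-named hsa-miR-145* was above it on all 6.

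Related miRNAs were read from lists made with results of these data known. Of 8 probes for the seed and cluster relatives (miR-206, miR-422a, miR-378b and miR-378c), 6 were higher and 2 lower for both variants, with a median of 0.17, 2 above background and 0 passing. The other muscle miRNAs (miR-206, miR-208a, miR-208b, miR-499 and miR-486) had 5 higher and 5 lower of 10, with a median of 0.06 and 0 passing. Of the 9 mature-named muscle marker probes, those of miR-1, miR-133a and miR-133b included, hsa-miR-206 and hsa-miR-499-5p were above background on all arrays. The 15 other colorectal tumour-suppressor miRNAs had 16 higher and 16 lower of 32 probes, with a median of 0.01, 10 above background and 0 passing, beside a median of -0.01 over all probes.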

How the data were processed

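Per the labels' protocols, 4 µg of total RNA from each HCT-116 sample was reverse transcribed with biotinylated random octamers. A probe with a mature name may therefore read precursor RNA too. The deposited table holds log2 signals that the authors normalized. The log base is taken from the highest value per array, just under 16. Limma is named, without a version, in the submitters' processing notes. How background was corrected and arrays were normalized is not given in the sources used here.

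A model with a mean for each of the 3 groups was fitted in limma 3.58.1 under R 4.3.3, with 3 residual and 5.71 prior degrees of freedom, on the 1773 human miRNA and ultraconserved-region probes. P-values were two-sided and Benjamini-Hochberg adjusted over all 1773, with a threshold of 0.05. No filter on dim probes was used. The mature-named minus precursor-named difference was fitted the same way over 559 names. The number of arrays limits the precision. The scripts were tested on simulated data.

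Members and lists were chosen with earlier results of these data known. Probes given array by array were those above background, each mature-named non-star probe, and the 2 members of smallest p per comparison. Likeness of profiles was measured for hsa-miR-145 and the member probe of highest mean signal, hsa-miR-139-3p. That ranking otherwise only orders the plot of signals. Mouse-named, mismatch and control probes stayed out of the tests. Alternatives were a trended prior, fits on the compared groups, quantile normalization, centring on small nucleolar RNA probes, a background filter, added mouse-named probes and leaving out arrays.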

Additional observations from a re-analysis of the deposited data

Results flagged for a closer look

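Of the mouse-named probes that bear a member's name and stayed out of the comparisons, mmu-mir-133b-P was higher on all 4 variant arrays than on both mock arrays, with a difference of 0.787 on the log2 scale. It read 5.90 and 5.65 in mock, 6.55 and 6.46 with variant 1, and 6.19 and 7.04 with variant 2, and it was above background on 1 array. Of the 17 such probes, 2 others did not overlap either, and both were lower with the variants, mmu-miR-145* by a difference of -1.03 and mmu-mir-1-1-P by one of -0.79. That is 1 of 17 higher (5.88%) and 2 lower (11.8%), beside 7.93% and 5.9% of all 1084 mouse-named probes. The human-named hsa-mir-133b-P read 6.63 and 6.85 in mock, 7.12 and 7.46 with variant 1, and 6.63 and 7.47 with variant 2, a difference of 0.43 (SE 0.367).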

How the results depend on the processing

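No member passed under any alternative, and 0 of 31 results with a test for a single probe or name crossed the threshold. Over these alternatives their adjusted p ran from 0.135 to 1. A trended prior called 1 of the 1773 probes for both variants against mock, hsa-miR-1260b (adjusted p 0.0469), and 0 in the other comparisons. Centring on the small nucleolar RNA probes moved the median of all probes to 0.64 for both variants, 0.64 for variant 1 and 0.67 for variant 2. It moved the median of the 19 probes to 0.76, 0.84 and 0.82, which is 0.12, 0.19 and 0.15 above that of all probes. With it 18 of the 19 probes were higher for both variants, against 11 as deposited. It turned the sign of hsa-miR-133a (0.64), hsa-miR-139-3p (0.47), hsa-miR-143 (0.54) and hsa-miR-145 (0.59) for both variants, of hsa-miR-139-3p for variant 1 (0.32) and variant 2 (0.62), and of hsa-miR-145* for variant 2 (0.35). Quantile normalization turned hsa-miR-139-3p for variant 2 (0.0043).

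Leaving out arrays, with a lone array assumed to vary like the other groups, gave medians of 0.013 to 0.35 for both variants, 0.07 to 0.25 for variant 1, -0.11 to 0.38 for variant 2 and -0.13 to 0.46 for variant 2 against variant 1. For both variants the differences ran from -0.35 to 0.39 for hsa-mir-1, -0.29 to 0.26 for hsa-miR-133a, -0.13 to 1.42 for hsa-miR-133b, -0.80 to 0.44 for hsa-miR-139-3p, -0.29 to 0.063 for hsa-miR-143, -0.52 to 0.40 for hsa-miR-145, -0.25 to 0.49 for hsa-miR-145* and -0.12 to 0.62 for hsa-miR-328. For variant 1 they ran from -0.94 to 0.30 for hsa-miR-139-3p and -0.25 to 0.64 for hsa-miR-328. For variant 2 they ran from -0.66 to 0.58 for hsa-miR-139-3p, -0.66 to 0.10 for hsa-miR-145* and -0.14 to 0.75 for hsa-miR-328, and against variant 1 from -0.13 to 0.70 for hsa-miR-139-3p and -0.19 to 0.70 for hsa-miR-328. The mature-named minus precursor-named change ran from -0.67 to 1.21 for miR-133b, -0.015 to 0.39 for miR-1 and -1.22 to 0.20 for miR-328. With 1 sign throughout, differences for both variants ran from 0.93 to 1.24 for hsa-miR-133a-1-P, 0.15 to 0.96 for hsa-miR-1 (2), 0.12 to 0.54 for hsa-miR-139-5p, 0.42 to 1.24 for hsa-mir-328-P and -1.26 to -0.25 for hsa-miR-378. The setting without mock replicate 1 and variant 2 replicate 2 together was chosen after seeing the data. For both variants the lowest median, 0.013, came from that setting and the highest, 0.35, came without mock replicate 2. The causes were not tested. No paired analysis was possible because the replicate numbers only follow the order of deposit.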
